A study of Mus musculus with 586 samples.

Results

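The 40 imprinted genes described here were taken by name from 18 tables of gene expression in gastrulating mouse embryos. All 40 names were found among the 23361 genes that the tables list, so every one is accounted for below. They lie on 9 chromosomes and fall into 17 clusters or lone genes. In the GENCODE annotation 32 are protein coding and 8 are non-coding or of another class. Levels are totals over both parental alleles, and nothing here separates the alleles.

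Genomic imprinting marks the maternal and paternal copies of a gene differently in the germ line, mostly by DNA methylation at an imprinting control region, so that in many tissues only the copy from 1 parent is transcribed. Imprinted genes lie in clusters in which a long non-coding RNA or an insulator often separates the growth-promoting genes expressed from the father (Igf2, Peg3, Mest, Peg10) from the growth-limiting genes expressed from the mother (Igf2r, Cdkn1c, Phlda2, Grb10). They are best known for their roles in placenta, yolk sac, embryonic growth and, for the Snrpn cluster, brain.

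The libraries were made by Geo-seq, in which small groups of cells are cut by laser from cryosections of an embryo and sequenced. All embryos were wild-type C57BL/6, with no treatment, and the groups differ only in stage and position. There were 2 embryos at embryonic day 5.5 (E5.5), 2 at E6.0, 6 at E6.5, 2 at E7.0 and 6 at E7.5, which gave 473 libraries of 586 samples whose columns could be matched by name. The table of E6.5 embryo 6, 1 of the 2 embryos with E6.5 endoderm, is named for E6.0, and the stage in its labels was used. Without that embryo 20 imprinted genes in place of 24 passed between endoderm and epiblast, and 6305 in place of 7288 over all genes. The labels do not spell out the region codes, which follow the published atlas. The epiblast, the layer that forms the embryo proper, was cut into an anterior (A) and a posterior (P) side. Endoderm is coded EA (anterior) or EP (posterior), mesoderm M, MA or MP, and visceral endoderm VE. Sections are numbered from the distal tip. The replicate is the embryo. Endoderm was compared with epiblast in 6 embryos (2 each at E6.5, E7.0 and E7.5) and mesoderm in 4 (2 each at E7.0 and E7.5). P was compared with A in 6 embryos at E6.5, 2 at E7.0 and 4 at E7.5. The sections that hold both P and A numbered 5 to 7 per embryo at E6.5 and 3 or 4 at E7.0. At E7.5 they numbered 10 in embryo 3 and 3 in each of embryos 4, 5 and 6. For endoderm and epiblast the sections were 7 per embryo at E6.5 and 3 at E7.0 and E7.5. The part of this unequal coverage in the results was not tested.

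Values are FPKM, fragments normalised to transcript length and to the mapped reads of the library. The number of genes that reached 1 FPKM ran from 2683 to 11319 per library (median 8949). Total read counts are not in the tables, so depth is known only roughly. The endoderm libraries carried the defining markers of visceral endoderm, with summed levels of 3995 to 19992 FPKM per embryo and region against 11.9 to 1480 in A and P. Epiblast markers summed to 126 to 980 FPKM in A and P and to 29.3 to 143 in endoderm. Several libraries went against their labels or held other cells. The P library of section 5 of E6.0 embryo 1 had 980 FPKM of H19, 616 of Igf2 and 461 of Dcn, a marker of maternal decidua, with 2.03 of the epiblast gene Pou5f1. The other P libraries of that embryo had 5.60 to 23.8 FPKM of H19 and 0.0879 to 2.66 of Igf2. Without that library the E6.0 P means of H19 were 17.0 and 8.43 FPKM in the 2 embryos. Those of Igf2 were 1.33 and 0.805. No difference below is taken between E6.0 groups, but E6.0 embryos enter the shared estimate of the spread in the P minus A and A fits. Without this library and 5 others with decidua markers, the same 6 genes passed for P minus A at E7.5, and 4 genes in place of 2 at E7.0. Over all genes 1421 in place of 1480 passed at E7.5 and 275 in place of 263 at E7.0. In those 5 others, at E5.5, E6.5 and E7.5, a decidual prolactin (Prl8a2) took the decidua markers over 300 FPKM, and Dcn was at 0. The E6.0 library had 0 FPKM of Prl8a2, and Dcn gave 461 of its decidua marker sum of 476 FPKM. Dcn is also in the list of other imprinted genes used below, so it does not by itself place that library as decidua. In E7.0 embryo 1, trophoblast and placental prolactin markers summed to 2456 FPKM in EA and 4707 in EP, against 113 to 811 in the endoderm of the other 5 embryos.

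The promoter windows below are those of Phlda2, Mest, Nnat, Meg3 and Snrpn. Each is 300 bases long and taken from RefSeq (GRCm38.p6), 5′ to 3′ on the gene's strand. Windows were found for 31 of the 40 genes. None was found for Cdkn1c, H19, Impact, Kcnq1, Nespas, Peg10, Peg13, Rtl1 and Sgce. Those of the other genes, Igf2 and Peg3 among them, are not shown. Capitals mark TGCCGC on either strand (GCGGCA on the other), the core motif of ZFP57, a zinc finger protein that keeps the methylation at imprinting control regions. The motif lay in 11.6% of 32851 windows of this length over all genes and in 11 of 46 windows of the imprinted genes (23.9%). By gene, it lay in 10 of 31 imprinted genes (32.3%) and in 13.1% of 27025 genes, so most imprinted genes had no match. The windows shown are thus richer in matches than the imprinted genes as a set. The motif holds a CG pair, and the median count of CG pairs was 13.5 in windows of imprinted genes and 7 in all windows. Some windows of a gene overlap, as for Mest. The part of CG content and overlap in the shares with the motif was not tested. The motif has no overlap with another, since no other was searched. A match is a string of letters and not a bound site.
Phlda2, chr7:143502475-143502774, minus strand, no match: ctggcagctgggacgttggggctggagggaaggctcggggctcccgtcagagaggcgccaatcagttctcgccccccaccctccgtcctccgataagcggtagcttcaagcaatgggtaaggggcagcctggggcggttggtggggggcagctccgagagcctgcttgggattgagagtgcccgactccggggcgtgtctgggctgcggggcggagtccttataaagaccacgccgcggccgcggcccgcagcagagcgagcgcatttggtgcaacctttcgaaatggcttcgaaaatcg
Mest, chr6:30737800-30738099, plus strand, 2 matches: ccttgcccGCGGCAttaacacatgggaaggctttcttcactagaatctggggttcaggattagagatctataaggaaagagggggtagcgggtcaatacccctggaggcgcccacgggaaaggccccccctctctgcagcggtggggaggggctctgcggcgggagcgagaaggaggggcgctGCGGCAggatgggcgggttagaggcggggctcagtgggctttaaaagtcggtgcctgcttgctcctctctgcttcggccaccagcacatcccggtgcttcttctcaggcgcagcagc
Nnat, chr2:157559828-157560127, plus strand, 1 match: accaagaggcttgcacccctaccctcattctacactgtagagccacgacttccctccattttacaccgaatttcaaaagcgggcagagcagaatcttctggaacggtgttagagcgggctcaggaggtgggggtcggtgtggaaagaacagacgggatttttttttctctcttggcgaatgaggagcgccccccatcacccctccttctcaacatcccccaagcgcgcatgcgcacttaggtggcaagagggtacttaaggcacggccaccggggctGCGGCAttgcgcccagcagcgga
Meg3, chr12:109540746-109541045, plus strand, 1 match: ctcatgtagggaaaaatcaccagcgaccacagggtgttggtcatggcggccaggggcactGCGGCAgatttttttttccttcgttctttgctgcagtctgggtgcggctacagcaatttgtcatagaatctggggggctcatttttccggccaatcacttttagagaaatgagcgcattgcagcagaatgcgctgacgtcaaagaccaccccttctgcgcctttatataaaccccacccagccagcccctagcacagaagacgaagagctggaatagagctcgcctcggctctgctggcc
Snrpn, chr7:60005150-60005449, minus strand, 1 match: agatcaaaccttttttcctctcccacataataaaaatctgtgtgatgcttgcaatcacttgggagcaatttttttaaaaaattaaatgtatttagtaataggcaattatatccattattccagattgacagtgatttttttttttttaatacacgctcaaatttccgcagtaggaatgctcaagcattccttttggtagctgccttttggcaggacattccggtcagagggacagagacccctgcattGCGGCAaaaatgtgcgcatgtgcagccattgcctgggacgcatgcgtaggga
Other RefSeq windows of Mest, Meg3 and Snrpn held no match or, for Mest, the same 2.

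The 40 genes differed widely in abundance. In 5 genes the highest mean of a stage and region was at least 100 FPKM, in 16 it was 10 to 100, in 14 it was 1 to 10 and in 5 it was under 1. Phlda2, a maternally expressed pleckstrin homology protein that restrains placental growth, was the most abundant, at 2099 ± 199 FPKM in E7.5 MP and 1255 ± 201 in E7.5 MA (SD, n = 2 embryos each). Its highest library, section 8 MP of E7.5 embryo 5, held 4433 FPKM. Snrpn, which encodes a spliceosome protein, reached 247 ± 145 FPKM in E7.5 A (SD, n = 6). Gnas, the locus of the stimulatory G protein alpha subunit, was detected in all 473 libraries and reached 182 ± 109 FPKM in E7.0 A (SD, n = 2). H19, the maternal non-coding RNA beside Igf2, reached 136 ± 130 FPKM in E6.5 EA (SD, n = 2). Meg3, the maternal non-coding RNA of the Dlk1 cluster, was at 1 FPKM or more in every library. At the other end Kcnq1, a potassium channel gene, was listed at 0 in 433 of 473 libraries, and Zim1 and Usp29 were at 1 FPKM or more in 2.75% and 4.23% of libraries.

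**Figure D1:**
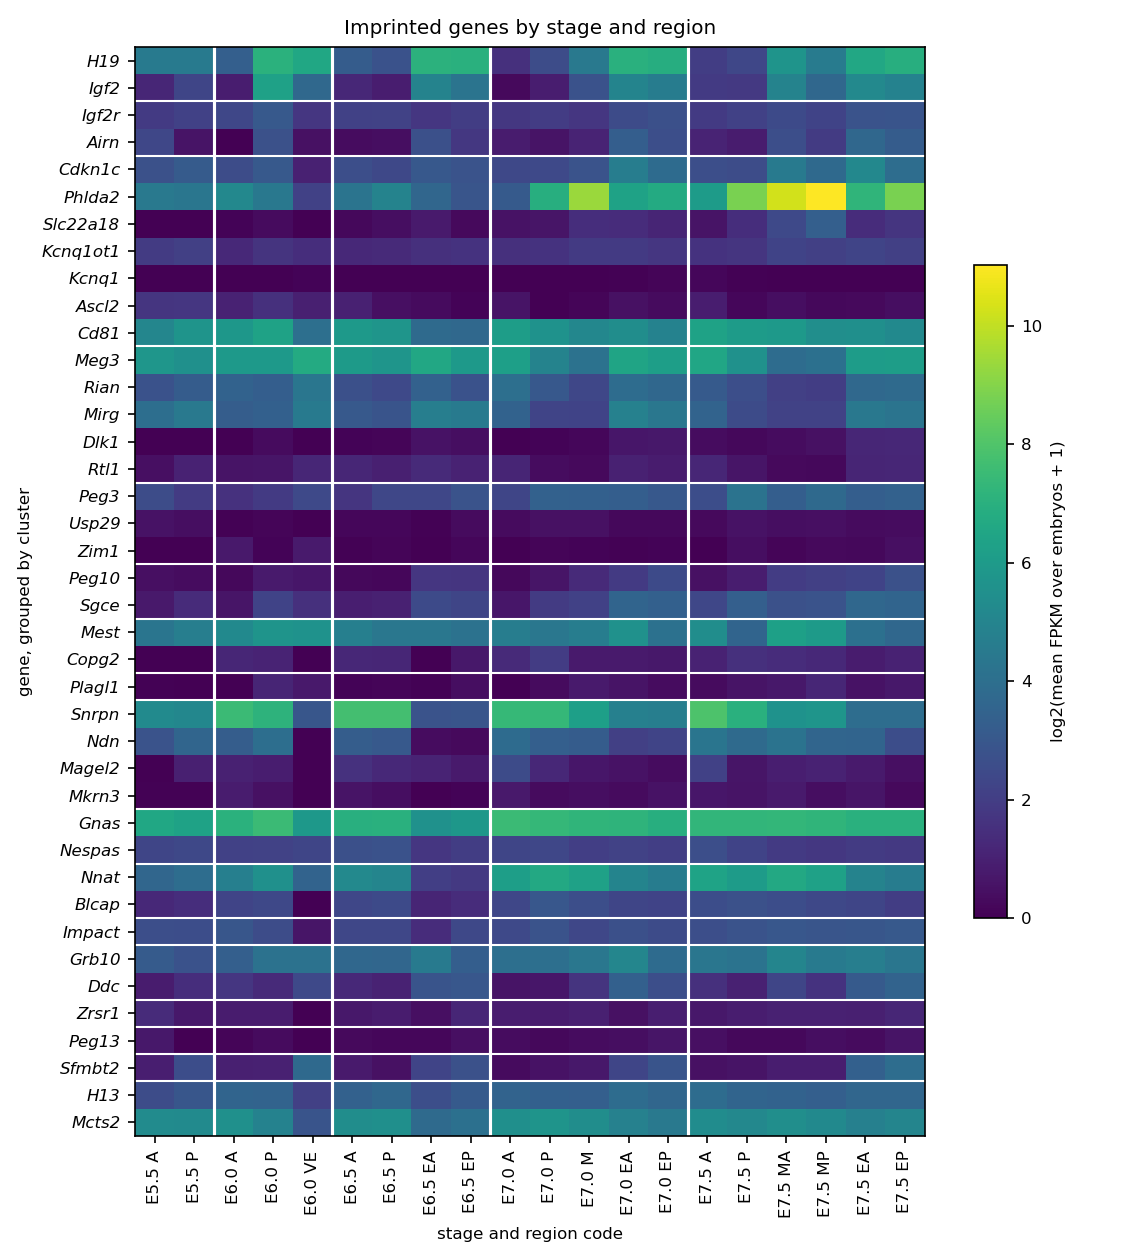
Mean level of each of the 40 imprinted genes by stage and region, as log2(mean FPKM over embryos + 1), with genes grouped by cluster and stages separated by white lines. Phlda2 is brightest in the E7.0 and E7.5 mesoderm columns, Snrpn and Nnat in the epiblast columns and H19 and Igf2 in the endoderm columns. The bright H19 and Igf2 cells of E6.0 P come from 1 library, which also has 461 FPKM of Dcn and 0 of Prl8a2.

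Between endoderm and epiblast H19 and Igf2 were much higher in endoderm and Snrpn and Nnat much lower. The comparison took, in each of 6 embryos, the mean difference of log2(FPKM + 1) between the endoderm (EA and EP) and the epiblast (A and P) of the same section, so differences are understated for genes near 0. Of 32 tested genes 14 were higher in endoderm and 10 were lower at an adjusted p under 0.05 by limma. Of all 10332 genes tested, 10.9% were higher, 59.6% lower and 70.5% one or the other, so that the share of imprinted genes that differed is near that of all genes. The median difference was 0.16 for the imprinted genes and -0.47 for all genes. With each library rescaled to a sum of 1000000 the all-gene median was -0.25, and no called imprinted gene changed sign. As these are bulk samples, fewer cells of a type and less RNA per cell cannot be told apart.

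H19 and Igf2, which share enhancers and an insulator on chromosome 7 (H19 at 142575529 to 142578143 and Igf2 at 142650766 to 142666816, mm10), stood highest in endoderm. H19 was at 55.3, 210, 103, 112, 78.1 and 142 FPKM in the endoderm of E6.5 embryos 5 and 6, E7.0 embryos 1 and 2 and E7.5 embryos 5 and 6. In the epiblast of the same embryos it was at 1.69, 14.0, 0.679, 3.24, 3.16 and 5.18 FPKM. Every embryo was higher in endoderm and the groups did not overlap, with a log2 difference of 4.63 ± 0.32 (SE, adjusted p = 1.49e-12). Igf2, the fetal insulin-like growth factor, had 9.73 to 51.5 FPKM in endoderm (median 22.8) and 0.147 to 2.74 in epiblast (median 1.27). Its log2 difference was 3.29 ± 0.28 (adjusted p = 1.19e-10), again with no overlap. Igf2r, the receptor that clears IGF2 from the cell surface, was also higher in endoderm, by 0.65 ± 0.16 (adjusted p = 0.00063), at 4.73 ± 2.00 against 2.29 ± 1.26 FPKM (SD, n = 6). Airn, the paternal antisense RNA that silences Igf2r in cis, was higher by 2.02 ± 0.30 (adjusted p = 1.23e-05). Airn overlaps Igf2r in the genome, and the sources used here do not say that counting used strand, so they are not fully separable.

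Of the other growth-limiting maternal genes, Cdkn1c was clearly higher in endoderm. Cdkn1c, an inhibitor of cyclin-dependent kinases, was at 20.8 ± 16.8 FPKM in endoderm and 3.44 ± 1.58 in epiblast (SD, n = 6), a log2 difference of 1.69 ± 0.20 (adjusted p = 3.14e-08). Grb10, an adaptor that dampens insulin signalling, differed by 0.40 ± 0.16 (adjusted p = 0.0279), with 5 of 6 embryos higher, and it missed the threshold with at least 1 embryo left out. Phlda2 had a log2 difference of 0.40 ± 0.17 (adjusted p = 0.0359), but 4 embryos were higher and the 2 E6.5 embryos lower, at -2.27 and -1.39. With a pseudocount of 0.1 its mean turned to -0.11 (adjusted p = 0.714), so no direction holds for it. Meg3 (0.35 ± 0.15, adjusted p = 0.036) and Mirg (1.17 ± 0.19, adjusted p = 2.59e-06), the host RNA of a large group of microRNAs, were higher. Rian, between them on chromosome 12, did not pass the test. Meg3, like Grb10, missed the threshold with at least 1 embryo left out.

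Another 5 genes were higher in endoderm. Sfmbt2, a polycomb protein needed in trophoblast, was at 3.48 to 17.9 FPKM in endoderm and 0.0940 to 0.895 in epiblast, a log2 difference of 1.98 ± 0.24 (adjusted p = 4.11e-08). Peg10, a retrotransposon-derived gene required for the placenta, differed by 1.41 ± 0.22 (adjusted p = 3.74e-06). Its neighbour Sgce, which encodes epsilon-sarcoglycan, differed by 1.13 ± 0.18 (adjusted p = 2.24e-06). Ddc, which encodes the dopa decarboxylase beside Grb10, differed by 1.78 ± 0.23 (adjusted p = 9.16e-08). Peg3, a zinc finger gene, differed by 0.45 ± 0.15 (adjusted p = 0.00837). All of these 5 were higher in 6 of 6 embryos.

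The Snrpn cluster and Nnat went the other way. Snrpn was at 116, 159, 175, 194, 136 and 157 FPKM in the epiblast of the embryos in the order above. In their endoderm it was at 4.48, 8.09, 24.4, 38.7, 17.8 and 9.68 FPKM. The ranges are far apart, with a log2 difference of -3.82 ± 0.31 (adjusted p = 4.21e-11). Nnat, a small proteolipid of the endoplasmic reticulum that lies in an intron of Blcap, had 17.4 to 87.3 FPKM in epiblast and 2.19 to 59.0 in endoderm, ranges that overlap between embryos. Within each embryo it was lower in endoderm, with a log2 difference of -2.19 ± 0.24 (adjusted p = 2.77e-08). Ndn, the necdin gene of the Snrpn cluster, was lower by -1.60 ± 0.19 (adjusted p = 2.68e-08) and Magel2 by -0.77 ± 0.18 (adjusted p = 0.000453). Cd81, a tetraspanin (-1.42 ± 0.17, adjusted p = 3.87e-08), Mcts2 (-1.24 ± 0.18), Copg2 (-0.98 ± 0.16), Blcap (-0.65 ± 0.15), Gnas (-0.44 ± 0.15) and Impact (-0.33 ± 0.15) made up the rest. Mcts2 is a retrogene copy of Mcts1, so reads may be split between them. Set against the all-gene median of -0.47, Gnas lay at 0.03 and Impact at 0.14. The 8 tested genes that did not pass were Kcnq1ot1, Slc22a18, Rian, Rtl1, Mest, Nespas, Zrsr1 and H13. The 8 under the mean of 1 FPKM that the test required were Kcnq1, Ascl2, Dlk1, Usp29, Zim1, Plagl1, Mkrn3 and Peg13.

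Of the 24 calls, 14 passed in every alternative fitted, among them H19, Igf2, Airn, Cdkn1c, Peg10, Sgce, Snrpn, Ndn and Nnat. Markers of visceral endoderm were higher in 10 of 10 and those of maternal blood in 5 of 5 genes tested; trophoblast markers were higher in 4 of 6 and parietal endoderm markers in 6 of 7. Their part in the result was not tested. Without the 20 libraries whose trophoblast markers summed to over 1000 FPKM, 18 imprinted genes passed, and 5944 in place of 7288 over all genes.

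**Figure D2:**
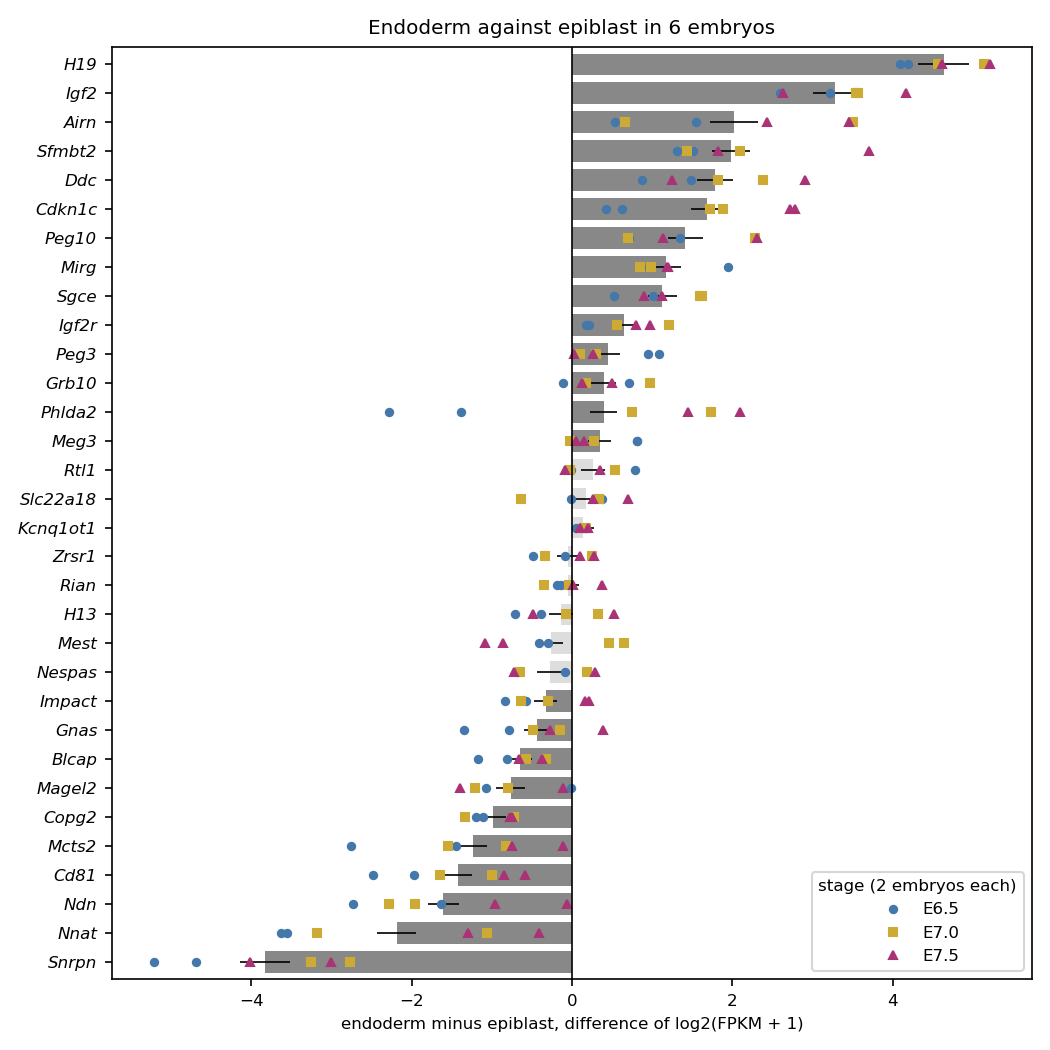
Difference of log2(FPKM + 1) between endoderm and epiblast for the 32 tested imprinted genes. Bars are the fitted means with standard errors, dark where the adjusted p was under 0.05, and points are the 6 embryos by stage; H19 and Igf2 lie above 2 in every embryo and Snrpn below -2, while the E6.5 points of Phlda2 lie below 0 and its later points above.

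Mesoderm, the layer that leaves the primitive streak, was compared with endoderm and with P in the 4 embryos of E7.0 and E7.5. Against endoderm, 8 of 30 tested imprinted genes were higher in mesoderm and 12 were lower (all 9910 genes, 30.6% higher, 14.4% lower and 45% in either direction). The medians were 0.03 for the imprinted genes and 0.17 for all genes. Phlda2 was at 570, 738, 1676 and 1677 FPKM in the mesoderm of E7.0 embryos 1 and 2 and E7.5 embryos 5 and 6. In their endoderm it lay between 87.2 and 369 FPKM. The groups did not overlap, with a log2 difference of 2.25 ± 0.36 (SE, adjusted p = 0.00285). Its neighbour Slc22a18, an organic cation transporter that is also maternally expressed, was higher by 0.90 ± 0.16 (adjusted p = 0.0039). Snrpn (2.00 ± 0.27) and Nnat (1.96 ± 0.26) were higher in mesoderm in 4 of 4 embryos, each with an adjusted p of 0.00271, and Ndn passed as well (adjusted p = 0.00418). Mest, a paternally expressed hydrolase-like gene long used as a mark of mesoderm, had a log2 difference of 1.18 ± 0.18 (adjusted p = 0.00271). The stages differed: 2.56 and 2.19 in the E7.5 embryos against 0.23 and -0.27 in the E7.0 embryos. Mcts2 (0.64 ± 0.12) and Blcap (0.40 ± 0.13) were the other 2.

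All 3 maternal non-coding RNAs of the Dlk1 cluster were lower in mesoderm than in endoderm. Meg3 (chromosome 12, 109541001 to 109571726) was at 9.01, 25.2, 13.1 and 16.5 FPKM in the mesoderm of the embryos in that order. In endoderm it was at 46.2, 112, 55.1 and 82.9 FPKM. The log2 difference was -1.92 ± 0.23 (adjusted p = 0.00271), and the embryos lay between -1.85 and -2.03. Mirg (-2.01 ± 0.25) and Rian (-1.45 ± 0.20) had the same adjusted p. Lower too were H19 (-2.39 ± 0.32), Sfmbt2 (-2.03 ± 0.29), Igf2 (-1.58 ± 0.29), Airn (-1.54 ± 0.30), Ddc (-1.17 ± 0.22), Cdkn1c (-1.03 ± 0.20), Sgce (-1.02 ± 0.19), Peg10 (-0.72 ± 0.18) and Igf2r (-0.67 ± 0.15). Calls for H19, Phlda2, Meg3, Rian, Mirg, Snrpn, Nnat and Sfmbt2 held in every alternative. The visceral endoderm markers were lower in mesoderm in 10 of 10 genes, and still summed to 199 to 2098 FPKM there per embryo and region. Markers of maternal blood were lower in mesoderm in 5 of 5 genes, of parietal endoderm in 6 of 7, of trophoblast in 4 of 6 and of decidua in 2 of 2. The part of these cells in the differences was not tested.

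Against P of the same sections, 8 of 29 tested imprinted genes were higher in mesoderm and 10 lower (all 9828 genes, 3.64% higher, 44.7% lower and 48.3% in either direction). The medians were -0.14 and -0.24. The higher genes were H19 (2.36 ± 0.38), Phlda2 (1.93 ± 0.34), Igf2 (1.57 ± 0.27), Mest (1.36 ± 0.29), Slc22a18 (0.94 ± 0.19), Cdkn1c (0.89 ± 0.18), Ddc (0.82 ± 0.17) and Airn (0.82 ± 0.18), with adjusted p from 0.0125 to 0.013. H19 was at 9.60, 31.8, 33.1 and 41.3 FPKM in mesoderm against 1.36, 9.11, 5.83 and 5.01 in P, and every mesoderm value was above every P value. All 8 were higher in 4 of 4 embryos. Snrpn was lower, at 48.5 to 86.8 FPKM in mesoderm and 139 to 172 in P (-1.47 ± 0.20, adjusted p = 0.0122). Meg3 (-1.27 ± 0.21) and Rian (-0.93 ± 0.17) were lower as well, as were Copg2 (-0.62), Cd81 (-0.51), Blcap (-0.46), Peg3 (-0.41), Impact (-0.37), Mirg (-0.34) and Mcts2 (-0.25). Copg2 and Peg3 were lower in 3 of 4 embryos and the others in all 4. Set against the all-gene median of -0.24, Mcts2 lay at -0.009, Mirg at -0.10, Impact at -0.13 and Peg3 at -0.17. Blcap lay at -0.22, Cd81 at -0.27 and Copg2 at -0.38.

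The threshold in this comparison rests on few degrees of freedom. The number of imprinted genes past it was 1 (Snrpn) without E7.5 embryo 5, 0 with a pseudocount of 0.1 and 0 with no filter on low values. With libraries rescaled to a sum of 1000000 it was 3 higher and 0 lower, and over all genes 81 higher and 124 lower in place of 358 and 4391. With equal medians it was 9 higher and 3 lower, and over all genes 323 and 350. Over all genes 96 passed without E7.5 embryo 5, 0 with a pseudocount of 0.1 and 0 with no filter, in place of 4749. Visceral endoderm markers were higher in mesoderm than in P in 4 of 9 genes and maternal blood markers in 3 of 3, and their part was not tested.

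The number of imprinted genes that differed between anterior and posterior epiblast rose from E6.5 to E7.5, as did the share of all genes. At E6.5, 0 of 32 tested genes differed between P and A by limma (of all 11438 genes 0.411% were higher, 0.0262% lower and 0.437% one or the other), with 3 at an unadjusted p under 0.05 and 0 in every alternative. At E7.0, in 2 embryos, Sgce was higher in P by 1.15 ± 0.28 (adjusted p = 0.0404) and Magel2 lower by -1.60 ± 0.33 (adjusted p = 0.0158), where 2.3% of all genes passed (1.38% higher, 0.918% lower). Neither passed without either of the 2 embryos. Over all genes 158 were higher and 105 lower, against 133 and 119 with a sum of 1000000 and 160 and 166 with equal medians. At E7.5, in 4 embryos, 4 genes were higher in P and 2 lower (9.77% and 3.17% of all genes, 12.9% in either direction). The share of the 32 tested imprinted genes that passed was 18.8%, not far from the 12.9% of all genes. With a sum of 1000000 in each library the all-gene split moved from 1117 higher and 363 lower to 749 and 612, and with equal medians to 884 and 450, and in each the imprinted genes stayed at 4 and 2.

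Phlda2 showed the widest change. At E7.5 it was at 489, 211, 355 and 694 FPKM in P of embryos 3, 4, 5 and 6 and at 51.6, 11.6, 97.7 and 12.6 in A of the same sections. P was above A in each embryo and the groups did not overlap, with a log2 difference of 4.23 ± 0.38 (SE, adjusted p = 1e-06). At E6.5 it was at 16.6 to 46.2 FPKM in P and 8.12 to 25.5 in A, and the differences of the 6 embryos lay between 0.18 and 0.72 on the log2 scale. At E7.0 the 2 embryos had 47.2 and 129 FPKM in P against 6.95 and 8.44 in A. In embryo 1 the 3 P libraries were at 3.67, 7.68 and 130 FPKM, so most of that mean comes from 1 library. The change of the difference from E6.5 to E7.5 was itself tested and was 3.79 ± 0.49 (adjusted p = 0.000203), where 3.39% of all genes passed.

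Slc22a18, next to Phlda2, was at 1.36 to 2.53 FPKM in P and 0 to 0.929 in A at E7.5 (1.06 ± 0.16, adjusted p = 0.000234). Peg3 was at 6.54 to 20.6 FPKM in P against 2.49 to 4.71 in A (1.77 ± 0.23, adjusted p = 4.19e-05). Sgce was at 5.14 to 11.8 against 1.10 to 4.47 FPKM (1.46 ± 0.20, adjusted p = 9.23e-05). For each of these 3 genes every P value lay above every A value. Mest went down, from 15.5 to 43.0 FPKM in A to 4.31 to 15.3 in P, with no overlap (-1.72 ± 0.20, adjusted p = 1.92e-05). Magel2, a gene of the Snrpn cluster, was at 1.71 to 8.72 FPKM in A and 0.0312 to 1.36 in P (-1.33 ± 0.24, adjusted p = 0.00109). The change from E6.5 to E7.5 passed for Slc22a18 (0.95 ± 0.20), Peg3 (1.28 ± 0.29), Sgce (1.46 ± 0.26) and Mest (-1.26 ± 0.26) and not for Magel2 (-1.11 ± 0.31, adjusted p = 0.0593). In E7.5 embryos 5 and 6 Mest was thus lower in P than in A and higher in mesoderm than in P. Mest alone passed in every alternative. With E7.5 embryo 3 alone, assumed to vary like the other embryos, Mest was the 1 gene of the 6 that passed.

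**Figure D3:**
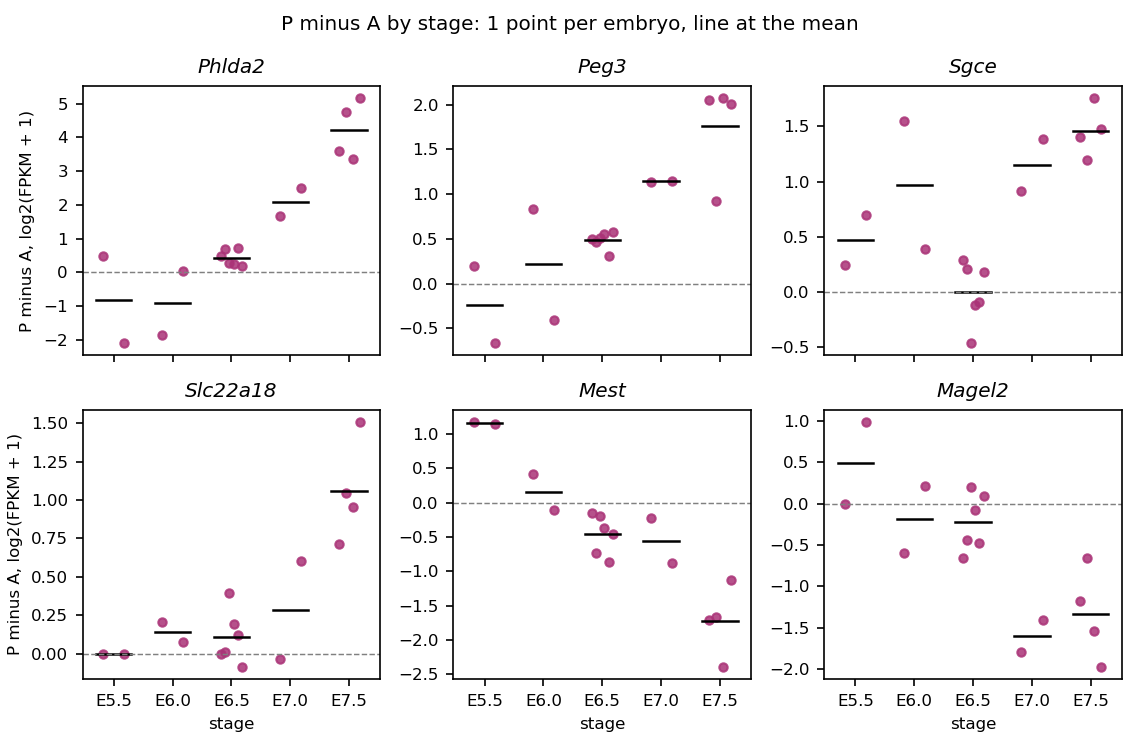
Difference P minus A of log2(FPKM + 1) within each embryo for 6 imprinted genes, against stage, with 1 point per embryo and a line at the stage mean. At E7.5 all 4 embryos lie above 0 for Phlda2, Peg3, Sgce and Slc22a18 and below 0 for Mest and Magel2; at E5.5 and E6.0 there are 2 embryos each and no test.

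In E7.5 embryo 3 libraries were also cut from the left and right sides, with L1 and R1 and with L2 and R2 in the same 7 sections as A and P. Phlda2 averaged 21.4 FPKM in A, 70.3 in L1 and R1, 199 in L2 and R2 and 415 in P. Mest averaged 46.3, 34.1, 14.1 and 10.5 FPKM in the same order, and Magel2 3.10, 1.59, 0.976 and 0.444. Both side positions thus lay between A and P for these 3 genes. Peg3 averaged 3.47, 2.68, 5.49 and 21.1 FPKM and Sgce 3.71, 4.18, 4.76 and 12.7, so that for these 2 genes only P stood well above. At E7.0, L and R of embryo 2 lay between A and P for Phlda2 (8.97, 13.7 and 170 FPKM in A, sides and P) and Mest (34.4, 23.0 and 19.3). The A and P means here are over 3 sections, where the P minus A comparison of this embryo used 4. In E7.0 embryo 1 Mest averaged 12.4, 7.16 and 11.5 FPKM, so there the sides lay below both. These are single embryos, with no test.

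Markers that move with these genes were measured in the same libraries. Primitive streak markers were higher in P in 5 of 5 genes at E6.5, E7.0 and E7.5, and mesoderm markers in 0 of 7, 5 of 7 and 6 of 7. Epiblast markers were lower in P in 0 of 7, 4 of 7 and 6 of 7, with a median of -2.64 at E7.5. The remaining 1 of 7 passed as higher in P at E7.5. These counts are of genes past the threshold. At E6.5 mesoderm markers had a median of 0.78, with 5 of 7 at an unadjusted p under 0.05 by limma. Epiblast markers had a median of -0.94 there, with 4 of 7. At E7.5 trophoblast markers were higher in P in 3 of 4 tested genes. Their sums were 12.7 to 20.9 FPKM in P and 3.55 to 8.31 in A of the same embryos. Visceral endoderm markers passed in 0 of 10 at E7.5, with a median of 0.52 and 4 at an unadjusted p under 0.05. The part of these markers in the differences was not tested.

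Along the embryo, from the distal tip to the proximal end, several imprinted genes had gradients. The slope is the change of log2(FPKM + 1) from the lowest to the highest section. In P at E6.5, 4 of 27 tested imprinted genes had a rising slope and 0 a falling one, where 10.7% of all 10453 genes rose, 0.43% fell and 11.1% did either. They were Phlda2 (3.26 ± 0.41, adjusted p = 5.37e-06), Peg3 (1.83 ± 0.30, adjusted p = 0.000313), H13 (0.93 ± 0.24, adjusted p = 0.0193) and Cdkn1c (0.91 ± 0.27, adjusted p = 0.0332). Phlda2 was at 3.65 to 25.1 FPKM in the lowest section and 34.9 to 171 in the highest, and the 6 slopes lay between 2.66 and 3.97. Each of the 6 embryos had this gradient. The all-gene median slope was 0.40. With either rescaling only 2 imprinted genes passed, and over all genes 110 rose and 26 fell (sum of 1000000) or 215 rose and 42 fell (equal medians) in place of 1116 and 45. Without E6.5 embryo 1 there were 7, and without embryo 2, 3, 4 or 6 there were 2. Over all genes there were 1750 without embryo 1 and 245 to 444 in those other fits, in place of 1161. Mesoderm markers rose in 6 of 7 genes and streak markers in 5 of 5, and their part was not tested.

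In mesoderm, the same 4-embryo set had rising slopes for Phlda2 (5.55 ± 0.80, adjusted p = 1.41e-08), H19 (4.72 ± 0.72, adjusted p = 1.04e-07), Igf2 (3.86 ± 0.65, adjusted p = 1.83e-06) and Cdkn1c (2.56 ± 0.61, adjusted p = 0.00586) among 29 tested. Of all 9637 genes 0.674% passed, all of them rising. Phlda2 went from 3.42, 59.6, 392 and 44.5 FPKM in section 2 to 2770, 2271, 2671 and 3501 in the highest section of E7.0 embryos 1 and 2 and E7.5 embryos 5 and 6. H19 went from 0.392, 1.83, 3.41 and 3.69 FPKM to 45.9, 79.1, 107 and 119. Igf2 went from 0, 1.74, 1.18 and 4.09 FPKM to 19.2, 23.4, 61.1 and 78.6. For all 3 the lowest and highest sections did not overlap. All 4 slopes were positive for each of the 4 genes. The calls are less firm than these values: 0 passed without E7.5 embryo 6, 2 without E7.5 embryo 5 and 18 without E7.0 embryo 2. Over all genes 0, 10 and 4930 passed in these fits, in place of 65. None passed with no filter or with a sum of 1000000, and none of all genes did. Visceral endoderm markers rose in 5 of 10 genes and markers of extra-embryonic mesoderm and blood progenitors in 3 of 4. The summed visceral endoderm markers went from 268 to 49.3 FPKM in E7.0 embryo 1 and from 457 to 165 in E7.5 embryo 6, from 922 to 1254 in E7.0 embryo 2 and from 157 to 1296 in E7.5 embryo 5. The part of endoderm RNA in these slopes was not tested.

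**Figure D4:**
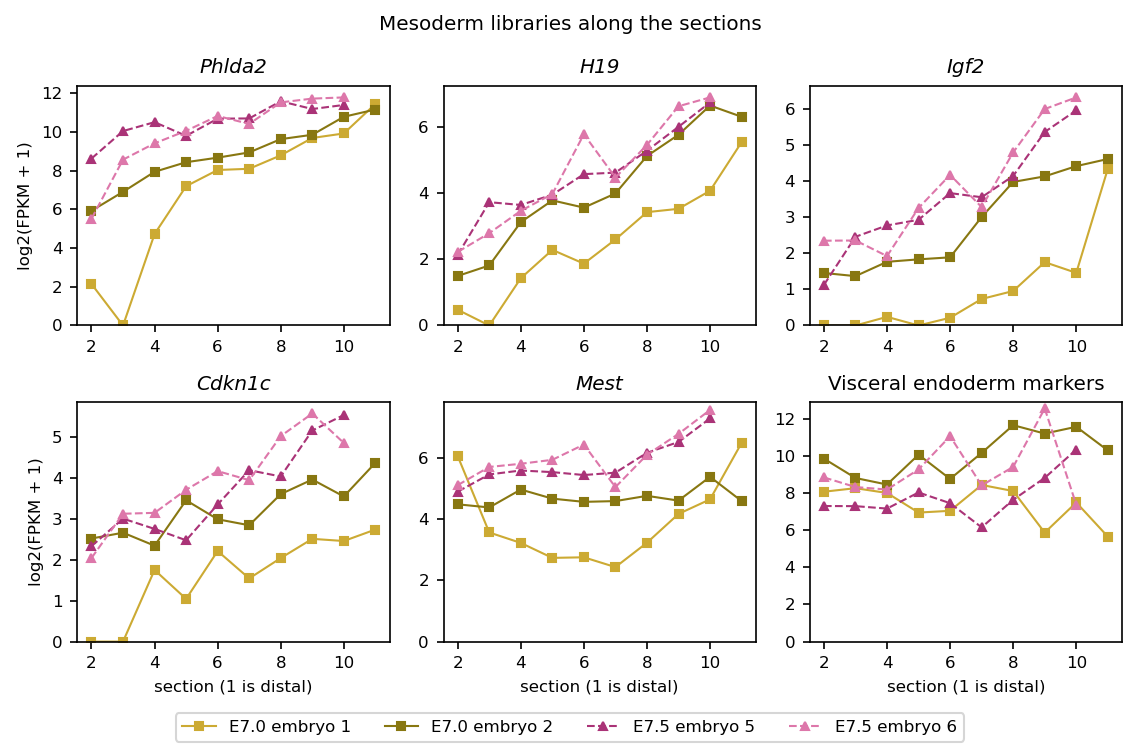
Level in the mesoderm, log2(FPKM + 1), against section number from distal to proximal for 5 imprinted genes and for the summed visceral endoderm markers, with 1 line per embryo (at E7.5 the mean of MA and MP). Phlda2, H19, Igf2 and Cdkn1c end higher than they begin in all 4 embryos, while the marker sum ends lower in E7.0 embryo 1 and E7.5 embryo 6.

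In endoderm 16 of 31 tested imprinted genes rose toward the proximal end and 3 fell, against 11.5% and 1.27% of all 10147 genes (12.7% in either direction). The median slope was 1.23 for the imprinted genes and 0.36 for all genes. H19 (3.68 ± 0.44, adjusted p = 2.51e-05) was at 12.7 to 76.2 FPKM in section 2 and at 109 to 587 in the highest section of the 6 embryos. Igf2 (3.30 ± 0.44, adjusted p = 8.23e-05) was at 1.28 to 10.6 and at 19.7 to 131 FPKM. Neither overlapped between the ends. Phlda2 (3.19 ± 0.51), Mirg (2.81 ± 0.46), Ddc (2.62 ± 0.43), Meg3 (2.54 ± 0.42), Sgce (2.15 ± 0.43), Sfmbt2 (2.15 ± 0.42), Rian (1.94 ± 0.40), Igf2r (1.75 ± 0.40) and Airn (1.72 ± 0.46) rose, as did Cd81, Slc22a18, Dlk1, Peg10 and Cdkn1c by 1.23 to 1.63. Cd81 rose in 5 of 6 embryos and the other 15 in all 6. Dlk1, the paternal Notch-ligand-like gene of the Meg3 cluster, was at 0 in the lowest section of all 6 embryos and at 2.64 ± 2.02 FPKM in the highest (SD). Nnat (-1.70 ± 0.51), Snrpn (-1.52 ± 0.45) and Mest (-1.46 ± 0.46) fell, each in 5 of 6 embryos. Visceral endoderm markers rose in 10 of 10 genes, with a median slope of 5.18, and maternal blood and parietal endoderm markers fell in 2 of 5 and 4 of 7, and their part was not tested. The number of imprinted genes past the threshold was 7 without E7.0 embryo 1, 7 without E7.5 embryo 6, 7 without the 20 libraries over the trophoblast limit and 0 with no filter. Over all genes 262, 321, 247 and 0 passed in the same order, in place of 1291. H19, Igf2, Phlda2, Meg3, Mirg and Ddc passed with each embryo left out in turn. With a sum of 1000000 the imprinted genes split 19 to 1, and with equal medians 21 to 3. All genes split 2062 to 109 and 2048 to 233, in place of 1162 to 129.

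Over stages the anterior epiblast was compared in TPM, FPKM rescaled to a sum of 1000000 in each library, since embryos of different stages are not paired. Between E5.5 (2 embryos) and E6.5 (6 embryos), 8 of 35 tested imprinted genes were higher at E6.5 and 1 was lower (28.9% and 2.04% of all 14065 genes, 30.9% in either direction). The median of all genes was above 0 in this comparison, at 0.59, close to the 0.56 of the imprinted genes, and libraries rescaled to equal medians gave 1.02. Snrpn was at 60.7 and 108 TPM in the 2 E5.5 embryos and at 291 to 472 at E6.5, with no overlap and a log2 difference of 2.56 ± 0.36 (adjusted p = 2.57e-05), or 1.98 above the all-gene median. Nnat was at 43.7 and 17.3 TPM and at 44.2 to 71.2 (2.43 ± 0.43, adjusted p = 0.00024). It was at 0 in 3 of 10 anterior libraries of E5.5 and 1 of 37 of E6.5, and its mean level was 30.5 and 62.1 TPM, a smaller ratio than the log2 difference gives. Magel2 was at 0 in all 10 anterior libraries of E5.5 and at 2.25 to 4.48 TPM at E6.5 (adjusted p = 0.00322). Over all regions, E5.5 libraries reached 1 FPKM in a median of 6148.5 genes, against 9215 at E6.5. A listed 0 at E5.5 is thus not read as absence. H19 was lower, with 69.0 and 40.3 TPM at E5.5 and 3.53 to 33.9 at E6.5 (-2.36 ± 0.49, adjusted p = 0.00103). These 4 genes passed in every alternative run.

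The remaining 5 calls, Ndn (1.59 ± 0.43), Blcap (1.46 ± 0.44), Nespas (1.33 ± 0.40), Mest (1.15 ± 0.42) and Cd81 (0.82 ± 0.30), each missed the threshold in at least 1 alternative. Ndn was at 0 in 5 of 10 anterior E5.5 libraries and Nespas in 6 of 10, against 1 and 0 of 37 at E6.5, while Cd81 was at 0 in none and Mest in 1 of 10. The mean levels of Ndn and Nespas were 14.0 ± 0.3 and 13.1 ± 6.5 TPM at E5.5 and 14.5 ± 4.5 and 8.83 ± 2.50 at E6.5 (SD), so the mean of Nespas was lower where its mean log level was higher. The anterior libraries of E5.5 also held more endoderm RNA: visceral endoderm markers summed to 1043 and 1227 FPKM, against 33.9 to 382 at E6.5, and were lower at E6.5 in 10 of 10 genes. Across the 20 A and P libraries of E5.5, log levels of H19 and of those markers had a Pearson correlation of 0.76 (Spearman 0.70), and across the 74 of E6.5 one of 0.51 (Spearman 0.56). Libraries of an embryo share its depth, and these values are descriptions. The part of endoderm RNA in the H19 difference was not tested.

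Between E6.5 and E7.5, with 6 embryos each, 2 of 35 imprinted genes were higher and 0 lower (1.38%, 0.683% and 2.06% of all genes higher, lower or either; 13 imprinted genes had an unadjusted p under 0.05). Sgce was at 0.465 to 3.80 TPM at E6.5 (median 1.87) and 5.35 to 11.1 at E7.5 (median 7.34), with no overlap and a log2 difference of 1.43 ± 0.30 (adjusted p = 0.0118). Nnat was at 44.2 to 71.2 (median 64.3) and 92.2 to 201 TPM (median 161), also with no overlap (1.24 ± 0.30, adjusted p = 0.0325). The count is small and moved between 0 and 4 over the alternatives, and only Sgce passed with each embryo left out in turn. Without E6.5 embryo 4 there were 4, and without any of E6.5 embryos 1, 2 and 3 and E7.5 embryos 1, 2, 3 and 5 there was 1. Over all genes there were 217 without E6.5 embryo 4 and 178 to 226 in those other fits, in place of 290. The E7.5 sections of embryos 4, 5 and 6 held 3 anterior libraries each, against 9 or 10 in embryos 1, 2 and 3. FPKM as deposited gave 65 genes higher and 69 lower over all genes, and equal medians 116 and 142, in place of 194 and 96.

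**Figure D5:**
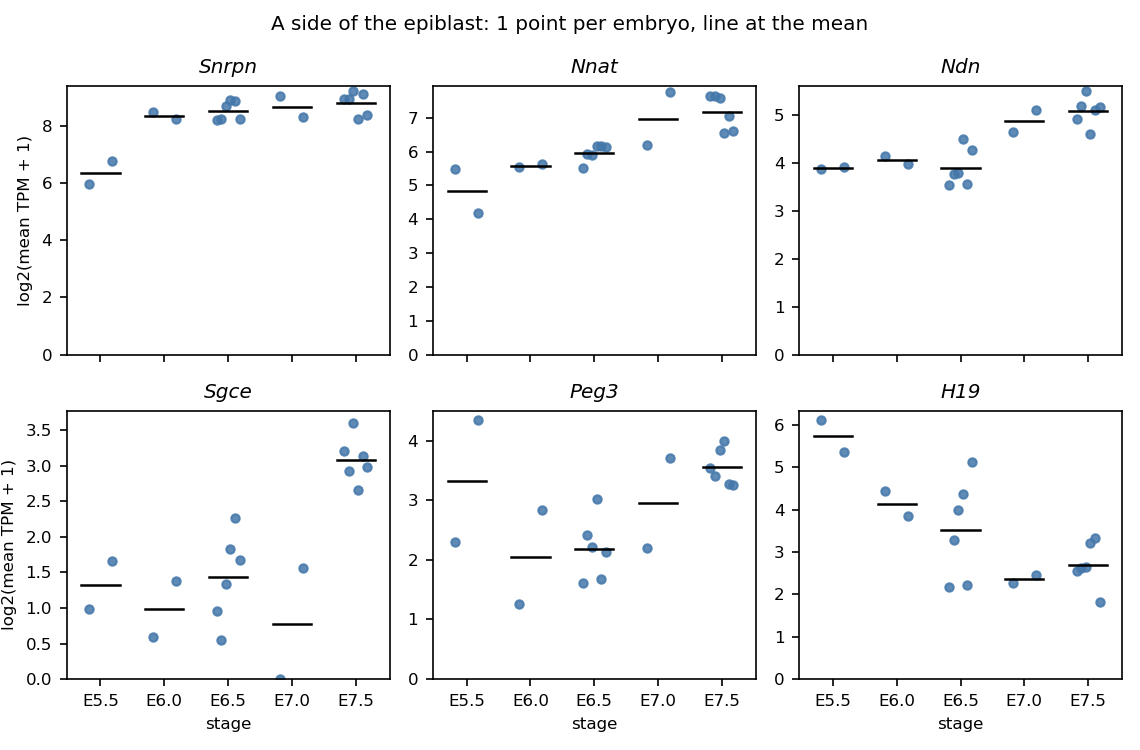
Level in the anterior epiblast, log2(mean TPM + 1), by stage for 6 imprinted genes, with 1 point per embryo and a line at the stage mean. Snrpn lies lower in the 2 E5.5 embryos than in any later embryo, Sgce lies higher in all 6 E7.5 embryos than in any other, and H19 is highest in the 2 E5.5 embryos.

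Genes of a cluster were compared across libraries as a description, on log2(FPKM + 1). H19 and Igf2 had a Pearson correlation of 0.84 over all 473 libraries of 18 embryos, 0.87 over 104 endoderm, 0.91 over 56 mesoderm and 0.49 over 216 A and P libraries. Meg3 and Mirg had 0.72 over all libraries, and 0.83 in endoderm. Phlda2 and Slc22a18 had 0.61 over all libraries, Snrpn and Ndn 0.61, Nnat and Blcap 0.52, and Peg10 and Sgce 0.52. Igf2r and Airn, of which the second silences the first on the paternal copy, had 0.24 over all libraries, -0.11 in A and P and 0.59 in endoderm. Phlda2 and Ascl2, both maternal genes of the Kcnq1 cluster, had -0.04. Libraries of an embryo share its depth, and pairs that overlap in the genome may share reads, which was not tested, so no p is given.

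Further lists of genes were measured in the same fits. Of 18 genes that set or keep imprints, 17 were tested between endoderm and epiblast and 16 were lower in endoderm, with a median of -0.75 against -0.47 for all genes. Dnmt3a (-1.84, adjusted p = 4.86e-09) and Dnmt3b (-1.86, adjusted p = 2.93e-09), the de novo DNA methyltransferases, were among them, as were Trim28 (-1.28), the co-repressor that ZFP57 recruits, and Dnmt1 (-0.61 ± 0.16, adjusted p = 0.00115), the maintenance methyltransferase. Zfp57 was lower in endoderm by -0.45 ± 0.16 (adjusted p = 0.0155). In P at E7.5 Zfp57 was higher than in A, at 10.1 against 1.76 FPKM (2.12 ± 0.29, adjusted p = 0.000112), while Dnmt3b was lower by -1.35 ± 0.24 (adjusted p = 0.00105). In the IGF pathway list 15 genes were tested between endoderm and epiblast, of which 8 were lower and 1 higher, a share lower that is under the 59.6% of all genes. Igf1r, the receptor through which IGF2 signals, was at 0.760 FPKM in endoderm and 3.54 in epiblast (-1.35 ± 0.17, adjusted p = 7.19e-08), the reverse of Igf2 itself. Igf2bp1, which encodes an Igf2 mRNA binding protein, was lower by -0.43 ± 0.15 (adjusted p = 0.0117), and like Zfp57 it lay near the all-gene median of -0.47. A list of other imprinted genes had 33 members in the data, of which 13 were tested, 4 higher and 6 lower in endoderm, beside 10.9% and 59.6% of all genes. The higher ones were Gab1 (1.09), Smoc1 (0.72), Asb4 (0.70) and Phf17 (0.50), and the lower ones Commd1 (-1.37), Slc38a4 (-0.99), Zdbf2 (-0.88), Tssc4 (-0.74), Ube3a (-0.70) and Nap1l4 (-0.64).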

How the data were processed

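The authors deposited 1 table of FPKM per embryo, made per the submitters' processing notes with TopHat2 2.0.8b and Cufflinks 2.1.1 on mm10; annotation, options and use of strand: not given in the sources used here. A column was used where its name fits 1 sample; 111 columns and 113 samples without such a match were left out. The imprinted genes, gene lists and tests were chosen with earlier results of these data known. Values are given for genes with a group mean of at least 10 FPKM, for genes that pass a test and for genes of their clusters.

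Differences were taken on log2(FPKM + 1) between regions of the same section, averaged per embryo, and fitted over all genes with a mean of at least 1 FPKM with limma 3.58.1 in R 4.3.3 (trend and robust). The stages shared 1 estimate of the spread, and p-values were adjusted by Benjamini-Hochberg, with a threshold of 0.05. Stages of A were compared in TPM, computed here as the deposited FPKM rescaled to a sum of 1000000. FPKM sums had a median of 416861 per library. Regions of an embryo are paired by design: deviations of A and P from their stage means correlated at 0.656 to 0.887 within embryos at E6.5 and 0.462 to 0.767 at E7.5, over 9796 genes, against at most 0.560 and 0.0523 between embryos. P-values rest on the spread between embryos, which limma moderates for each gene toward that of other genes of like level. In the slopes in mesoderm, with 4 embryos, they rest largely on the spread of those other genes. Alternatives were a pseudocount of 0.1, no filter, other scalings, no pairing, each embryo left out and subsets of embryos. Another 3, chosen after seeing the data, left out libraries with decidua markers over 300 FPKM (6), trophoblast markers over 1000 FPKM (20) or 1 gene over 50% of the sum (4). The fit was tested on simulated data.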

Additional observations from a re-analysis of the deposited data

Results flagged for a closer look

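Nnat in the anterior epiblast of E6.5 embryo 1 lay far below the other 5 embryos of its stage, with a mean log2(TPM + 1) of 4.71, and this embryo enters both stage comparisons of A. Peg3 had its smallest P minus A difference at E7.5 in embryo 4, at 0.93 on the log2 scale, far from the other 3 embryos. Some such values arise by chance when many groups are examined.

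The difference between P and A changed from E6.5 to E7.5, by a test of the change itself with limma, in 5 of 32 tested genes. Of all 11438 genes 3.39% passed. The changes were 3.79 for Phlda2, 1.46 for Sgce, 1.28 for Peg3, 0.95 for Slc22a18 and -1.26 for Mest on the log2 scale. Primitive streak markers passed as higher in P in 5 of 5 genes at both stages. Mesoderm markers passed in 0 of 7 at E6.5 and 6 of 7 at E7.5, with medians of 0.78 and 1.80. The part of these markers in the changes was not tested.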

How the results depend on the processing

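Every value given here is a number of genes past the threshold by limma, of imprinted genes unless all genes are named. The cause of each shift was not tested. Over all called genes and alternatives, 1096 values passed again in the same direction, 333 kept the direction and did not pass, and 1 reversed (Phlda2 in endoderm, -0.11 with a pseudocount of 0.1). In A from E5.5 to E6.5 the 9 genes became 15 with a pseudocount of 0.1 and 15 with equal medians, and 7 to 12 with 1 embryo left out. Over all genes 4346 became 6613, 7018 and 2614 to 4606 in the same order. From E6.5 to E7.5 the 2 became 0 with a pseudocount of 0.1, 1 with no filter, 1 with FPKM as deposited, 1 with equal medians, 0 in embryos with endoderm libraries, 4 in those without and 1 to 4 with 1 embryo left out. Over all genes 290 became 188, 213, 134, 258, 4, 303 and 178 to 371 in the same order. For P minus A at E7.0 the 2 became 1 with a pseudocount of 0.1, 1 with no filter, 0 with no replicate block, 4 without the libraries over the decidua limit and 0 to 0 with 1 embryo left out. At E7.5 the 6 became 1 in embryos without endoderm libraries (embryo 3 alone) and 5 to 6 with 1 left out. At E6.5 there were 0 in all. Over all genes the 263 of E7.0 became 201 with a pseudocount of 0.1, 233 with no filter and 70 with no replicate block. The number was 275 without the libraries over the decidua limit. The 1480 of E7.5 became 894 to 1176 over all genes with 1 embryo left out. Without the pairing, the 24 of endoderm minus epiblast became 15, the 18 of mesoderm minus P 4 and the 20 of mesoderm minus endoderm 11, and with 1 embryo left out these were 20 to 23, 1 to 20 and 17 to 24. Over all genes 7288, 4749 and 4464 became 3593, 161 and 921 without the pairing. With 1 embryo left out they were 6305 to 7375, 96 to 4519 and 2017 to 6615. Mesoderm minus P gave 0 with a pseudocount of 0.1, 0 with no filter and 3 with a sum of 1000000, and over all genes 0, 0 and 205. The 4 slopes in P became 2 with a sum of 1000000, 2 with equal medians, 0 in embryos with endoderm libraries, 2 in those without and 2 to 7 with 1 left out. Over all genes 1161 became 136, 257, 72, 125 and 245 to 1750 in the same order. The 4 in mesoderm became 0 with no filter, 0 with a sum of 1000000 and 0 to 18 with 1 left out. Over all genes 65 became 0, 0 and 0 to 4930. The 19 in endoderm became 0 with no filter, 7 without the libraries over the trophoblast limit and 7 to 22 with 1 left out. Over all genes 1291 became 0, 247 and 262 to 2842. The E5.5 to E6.5 comparison was not run in embryos with endoderm libraries, since no E5.5 embryo has them. Depth per library is known only roughly, so no interval is given for a value of 0.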

Other observations

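In E7.5 embryo 4 the endoderm and mesoderm libraries carry the codes E1, E2, M1 and M2, which the labels do not place, and they entered no comparison. Means over 9 libraries each, in that order, were 222, 198, 417 and 567 FPKM for Phlda2 and 42.9, 51.0, 10.6 and 18.8 for H19. Igf2 averaged 13.5, 16.7, 9.37 and 14.9 FPKM, and Meg3 33.0, 42.8, 7.64 and 12.0. Snrpn averaged 9.07, 2.45, 9.56 and 4.97 FPKM, Nnat 16.4, 8.32, 36.9 and 29.5, and Mest 8.72, 2.26, 19.2 and 25.1. Visceral endoderm markers summed to 3077 and 3994 FPKM in E1 and E2 and to 68.8 and 52.1 in M1 and M2.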
